A study of Mus musculus with 6 samples.

Results

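The cytosolic ribosomal protein genes were followed in cultured mouse oligodendrocyte progenitor cells (OPCs), dividing glia of the brain from which myelin-forming cells arise. The members are all genes whose mouse symbol starts with Rpl (large subunit) or Rps (small subunit), leaving out the Rps6k kinases, Rps19bp1 and symbols containing -ps. This rule found 87 of 18753 annotated genes, 52 of the large and 35 of the small subunit. Of these, 77 are canonical ribosomal proteins, 46 large and 31 small, and 10 are paralogs or retrocopies. RefSeq holds 94 symbols that meet the rule, and the other 7 (Rpl10l, Rpl32p, Rpl39l, Rpl6l, Rps12l1, Rps3a2 and Rps3a3) were listed in no library.

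Wild-type C57BL/6 pups aged 0 to 2 days, labelled postnatal day 1, gave the cortical cells. OPCs were picked out by magnetic sorting for CD140a (PDGFRα), a growth factor receptor they carry, and grown for 3 days. They then received 50 µM hemin, which is heme with its iron oxidised, or the vehicle, 0.25% DMSO, for 12 h, with 3 RNA-seq libraries per group. The series title places the work in ferroptosis of these cells after bleeding in the brain. Nothing in the labels says that the libraries of a group came from separate cultures, so the spread behind every p-value may be a technical one.

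Each ribosome carries 1 copy of nearly every ribosomal protein, with the stalk proteins Rplp1 and Rplp2 as the known exception, so the cell needs the members in matched amounts. Their mRNAs are among the most abundant of any dividing cell, and the corresponding proteins are assembled with ribosomal RNA in the nucleolus. Most of these mRNAs begin with a C followed by a run of pyrimidines, the 5′ terminal oligopyrimidine (TOP) tract, through which the kinase mTORC1 and the RNA-binding protein Larp1 control how well they are translated and how long they last. RNA-seq measures the amount of these mRNAs and not their translation.

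The first bases of 8 members are shown because the TOP tract is the feature the family is known for. They are the 30 bases before and the 20 bases from the RefSeq transcription start, on the coding strand, from assembly GRCm38.p6. Capitals mark the tract, defined as a C within 2 bases of the start followed by at least 4 pyrimidines.
Rps18 (chr17:33955646-33955695, minus strand): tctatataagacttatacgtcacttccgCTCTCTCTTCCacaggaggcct
Rplp2 (chr7:141447621-141447670, plus strand): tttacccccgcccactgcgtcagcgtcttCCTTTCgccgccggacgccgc
Rps10 (chr17:27635225-27635274, minus strand): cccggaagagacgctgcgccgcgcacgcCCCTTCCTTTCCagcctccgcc
Rps6 (chr4:86857348-86857397, minus strand): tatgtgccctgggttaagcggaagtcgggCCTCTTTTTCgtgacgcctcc
Rpl38 (chr11:114668550-114668599, plus strand): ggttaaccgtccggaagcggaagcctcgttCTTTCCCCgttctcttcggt
Rpl7a (chr2:26910777-26910826, plus strand): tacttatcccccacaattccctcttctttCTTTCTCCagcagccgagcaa
Rpl11 (chr4:136053374-136053423, minus strand): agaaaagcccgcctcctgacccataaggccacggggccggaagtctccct
Rps4x (chrX:102189372-102189421, minus strand): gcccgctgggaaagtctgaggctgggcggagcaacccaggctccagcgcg

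Rps18 and Rplp2 were among the members with the greatest rises, whereas Rpl7a, Rpl11 and Rps4x were not called. Counted from the C that opens it in this window, the tract runs over 11 bases in Rps18 and over 8 in Rpl7a. In Rpl7a pyrimidines also precede that C without a break, so the length given depends on the annotated start. Neither Rpl11 nor Rps4x has a tract within 2 bases of the annotated start. The table of starts covered 66 members with 78 starts. Of these starts 25 (32.1%) had a tract, against 8.96% of all 32851 starts in the table and 9.71% of the starts of tested genes.

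Expected counts over annotated genes summed to between 6463460 and 6523639 with hemin and to between 6339966 and 6390691 with vehicle. The hemin libraries listed more genes, 16719 to 16897 against 15388 to 15500 with vehicle. Pdgfra, the receptor used to select the cells, was present in every library, at 12.6, 31.6 and 26.9 FPKM (fragments scaled by transcript length and library size) with hemin and at 108, 148 and 105 FPKM with vehicle. Of the 11 OPC markers tested, 8 fell and 0 rose, where the background over all genes tested is 15.7% lower and 16.2% higher.

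Ribosomal protein mRNAs made up a larger part of the libraries after hemin. They took 4.27%, 4.91% and 4.9996% of the expected counts in the 3 hemin libraries, against 3.55%, 3.79% and 3.81% in the vehicle libraries. The 95% Wilson intervals of these shares are at most 0.0336 percentage points wide and cover counting error only. Every hemin library lay above every vehicle library, with the lowest hemin value in replicate 1. The means were 4.73% ± 0.40 with hemin and 3.72% ± 0.14 with vehicle (SD, n = 3 each), a difference of 1.01 percentage points. Per unit of transcript length the family weighs more, since its transcripts are short: it held 15.03%, 16.3% and 16.1% of summed FPKM with hemin, against 13.0%, 13.8% and 13.6% with vehicle.

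**Figure D1:**
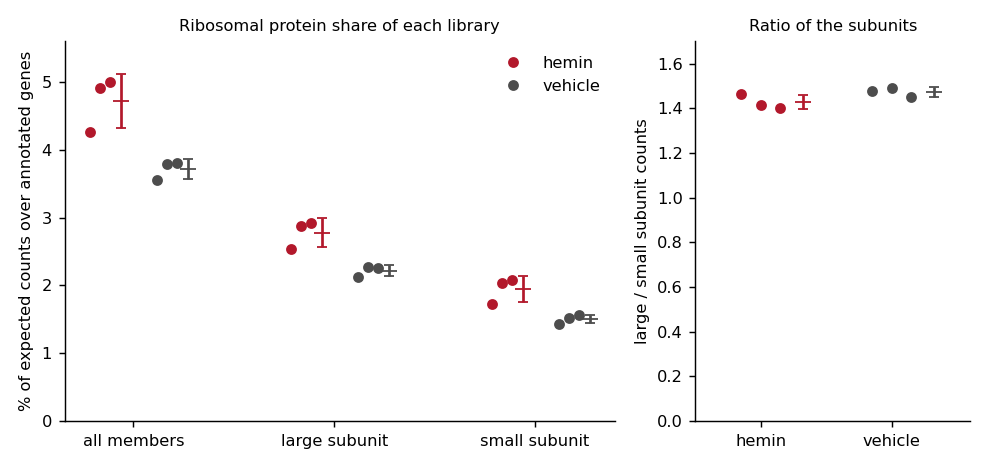
Left, percent of each library's expected counts that fell on all members, on the large and on the small subunit, with hemin and with vehicle; right, large over small subunit counts. Points are libraries, and bars beside them show the mean and SD of 3 libraries. All hemin shares lie above all vehicle shares, while the ratio of the subunits is between 1.402 and 1.46 with hemin and between 1.45 and 1.49 with vehicle.

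Gene by gene, 56 of the 84 tested members rose (edgeR quasi-likelihood test, Benjamini-Hochberg adjusted p below 0.05 over all 12783 genes tested), where the background is 16.2% of genes higher and 15.7% lower. None of the members fell in this test. At an unadjusted p below 0.05 the count was 69 higher and 0 lower. The share of all genes passing this unadjusted threshold is not given, here or for the counts below. DESeq2 called 62 higher and 0 lower (background 17.1% and 16.1%). Without vehicle replicate 1 the edgeR count was 29 of 85 higher, where the background is 11.1% higher. Limma on log2(FPKM + 0.1) called 27 of 85 higher, where the background is 12.9% higher. The median log2 fold change was 0.44, or 1.36-fold, against 0.00 over all genes tested. Of the 84 members 81 had a fold change above 0 and 3 below. In bulk libraries, more of these mRNAs per cell and more of the cells that hold many of them cannot be told apart. All values are relative to the other mRNAs of a library, and none gives an amount per cell.

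The rise was shallow and even. No called member reached 2-fold. The interquartile range of the members was 0.23 log2 units, against 0.78 for all genes tested. The members were also measured more closely, with a median SE of 0.097 against 0.19, so these ranges are not like for like. The spread of a low-count gene is wider, and the 67 members with a mean of at least 1000 counts gave a median of 0.45 with 52 called. Library by library, the median member stood 0.33, 0.51 and 0.48 log2 units above its vehicle mean in the 3 hemin libraries, against -0.07, 0.04 and 0.04 in the vehicle libraries. In FPKM, the 3 hemin values lay above the 3 vehicle values for 59 of the 84 members, where the background is 21.5% of genes, and below them for 1, where it is 27.5%. The 3 members not tested were Rps28, Rpl3l and Rps23rg1.

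**Figure D2:**
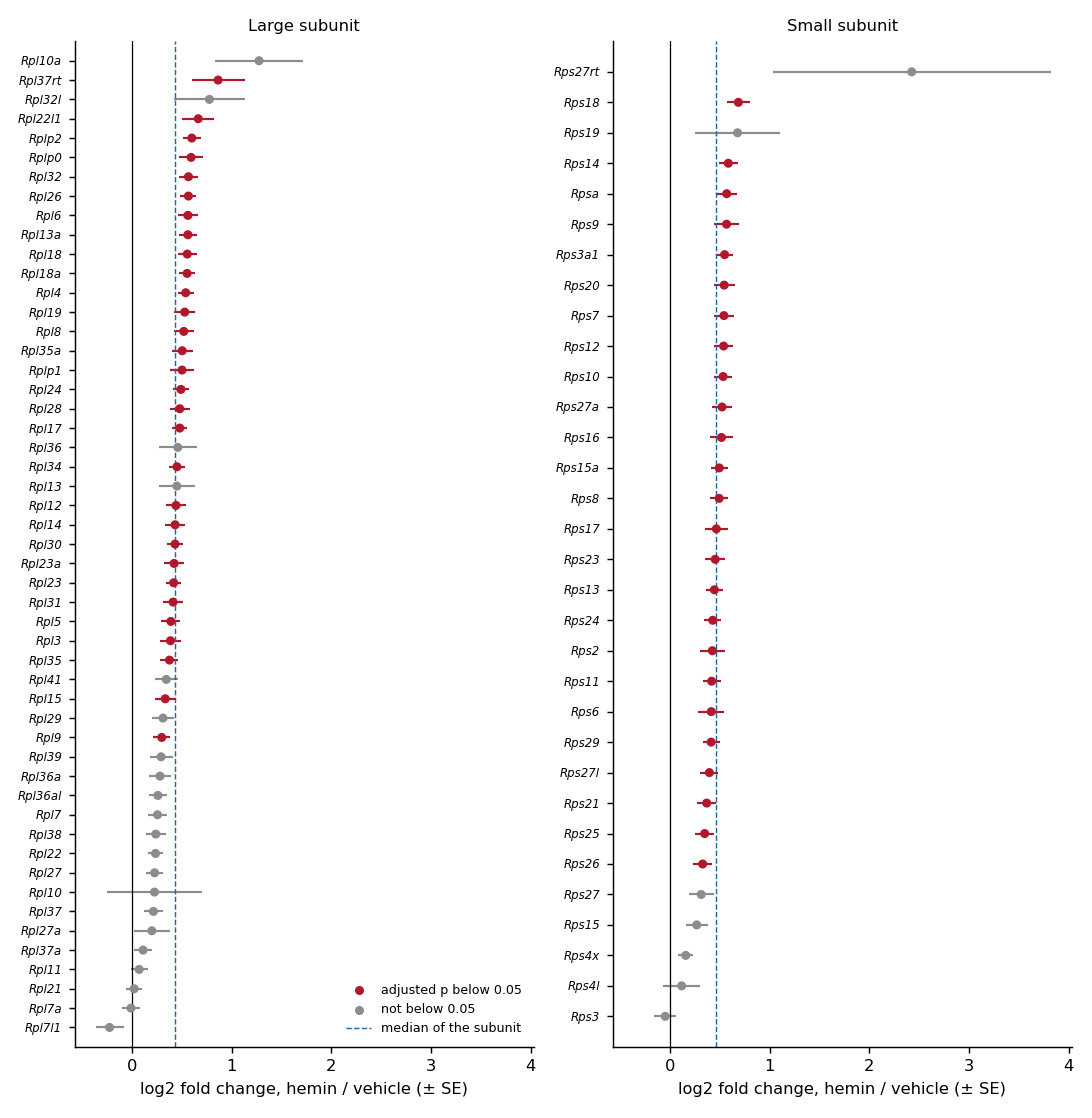
Log2 fold change (hemin over vehicle) of the tested members reported here with its standard error, large subunit left and small subunit right, from 3 libraries per group. Filled red points have an edgeR adjusted p below 0.05, and dashed lines mark the medians, 0.43 for the large and 0.47 for the small subunit. Most members stand in a narrow column right of 0, and a short tail at the bottom of each panel reaches 0.

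Most members rose in both subunits, where the background is 16.2% of genes higher and 15.7% lower. In the large subunit 30 of 51 tested members rose, with a median log2 fold change of 0.43, and in the small subunit 26 of 33, with a median of 0.47. Without vehicle replicate 1, 16 of the large and 13 of the small subunit were called, where the background is 11.1% of genes higher. The medians differed by -0.033 log2 units (large minus small), and by -0.088 without vehicle replicate 3. Large subunit mRNAs held 1.46, 1.42 and 1.402 times the counts of small subunit mRNAs with hemin, and 1.48, 1.49 and 1.45 times with vehicle. These ratios overlapped between the groups. Among canonical members alone, 28 of 46 rose in the large and 25 of 30 in the small subunit.

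In the small subunit the greatest rise among called members was that of Rps18, which lies in the head of the subunit. Rps18 had 588, 791 and 771 FPKM with hemin, against 443, 474 and 481 FPKM with vehicle. All hemin libraries stood above all vehicle libraries, with a log2 fold change of 0.69 ± 0.12 (SE; edgeR adjusted p = 0.0048). Rps14, whose loss on 1 allele underlies the anaemia of the human 5q- syndrome, had 822, 921 and 1047 FPKM with hemin, against 657, 652 and 633 FPKM with vehicle. Its log2 fold change was 0.59 ± 0.09. Rpsa, also known as a laminin receptor, rose by 0.57, Rps9 by 0.57 and Rps3a1 by 0.55 log2 units, Rps9 with an edgeR adjusted p of 0.060 without vehicle replicate 1.

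Rps27a, made as a fusion with ubiquitin, rose to 486, 575 and 616 FPKM with hemin, against 374, 419 and 421 FPKM with vehicle. Rps6, the target of the S6 kinases downstream of mTORC1, was listed at 48.1, 58.5 and 44.9 FPKM with hemin and at 36.5, 41.9 and 39.8 FPKM with vehicle. Its groups did not overlap, but its edgeR adjusted p of 0.047 was between 0.063 and 0.147 in the 5 fits without hemin replicate 1 or 2 or any 1 vehicle library. Rps24 and Rps26, both mutated in human Diamond-Blackfan anaemia, rose by 0.43 and 0.33 log2 units. Without vehicle replicate 1 their edgeR adjusted p was 0.052 and 0.14, and Rps26 passed only without hemin replicate 1 among such fits. Rps19, the first gene linked to that disease, was scarce and variable, at 43.8, 68.4 and 94.5 FPKM with hemin and 26.2, 33.0 and 74.4 FPKM with vehicle. The groups overlapped and it was not called (edgeR adjusted p = 0.26).

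In the large subunit all 3 genes of the stalk that recruits translation factors rose. Its base Rplp0 had 818, 1064 and 1139 FPKM with hemin, against 660.1, 689 and 723 FPKM with vehicle (log2 fold change 0.59 ± 0.12, edgeR adjusted p = 0.0085). Rplp2 had 654, 769.98 and 766 FPKM with hemin and 474, 526 and 518 FPKM with vehicle (log2 fold change 0.60 ± 0.09, edgeR adjusted p = 0.0034). Rplp1 rose by 0.50 ± 0.12, with an edgeR adjusted p of 0.055 without hemin replicate 2, 0.079 without vehicle replicate 1 and 0.068 without vehicle replicate 2. None of the 3 stalk genes had overlapping groups. Rpl32 rose by 0.57, as did Rpl26, whose protein sits at the exit tunnel and also binds p53 mRNA in human cells. Rpl13a, released from human ribosomes to silence inflammatory mRNAs, had 708, 845 and 836 FPKM with hemin, against 537, 588 and 557 FPKM with vehicle. Rpl3, at the peptidyl transferase centre, rose by 0.39, and was called in 1 of the 6 fits that left out a library, with an edgeR adjusted p of up to 0.099 (without vehicle replicate 1).

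Rpl5 and Rpl11 sit together with 5S ribosomal RNA and can bind Mdm2, the ubiquitin ligase of p53. Rpl5 had 74.0, 70.9 and 67.8 FPKM with hemin, against 53.5, 59.9 and 55.0 FPKM with vehicle, and rose by 0.39 ± 0.10 (edgeR adjusted p = 0.018, but 0.056 without hemin replicate 2 and 0.071 without vehicle replicate 1). Rpl11 had 525, 579.8 and 634 FPKM with hemin, against 567, 602 and 557 FPKM with vehicle. Its groups overlapped and its log2 fold change was 0.07 ± 0.09 (edgeR adjusted p = 0.55). The difference between Rpl5 and Rpl11 was not tested. Rpl23, another Mdm2-binding member, rose by 0.42. Rpl38, needed for the translation of Hox mRNAs in mouse embryos, had 414, 452 and 466 FPKM with hemin and 349, 432 and 405 FPKM with vehicle, with overlap, and was not called (log2 fold change 0.24 ± 0.10).

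The level of the mRNAs per length varied far more between members than it did between treatments. Mean FPKM over all 6 libraries ran from 8.26 for Rpl10a to 1789 for Rpl23a among the canonical members, with a median of 633. The highest large subunit mRNAs were Rpl23a and Rpl35, both beside the tunnel exit, and Rpl41, the shortest ribosomal protein. In the small subunit they were Rps27, Rps12 and Rps26. Rpl23a had 1804, 2204 and 2020.1 FPKM with hemin, against 1531, 1705 and 1469.8 FPKM with vehicle. It rose by 0.42 (edgeR adjusted p = 0.015, but 0.053 without hemin replicate 2, 0.070 without vehicle replicate 1 and 0.056 without vehicle replicate 3). Rps27 had 1645, 1706 and 1359 FPKM with hemin and 1237, 1319.8 and 1464 FPKM with vehicle, so its groups overlapped (edgeR adjusted p = 0.093). Rpl41 overlapped too and just missed the threshold (edgeR adjusted p = 0.052).

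**Figure D3:**
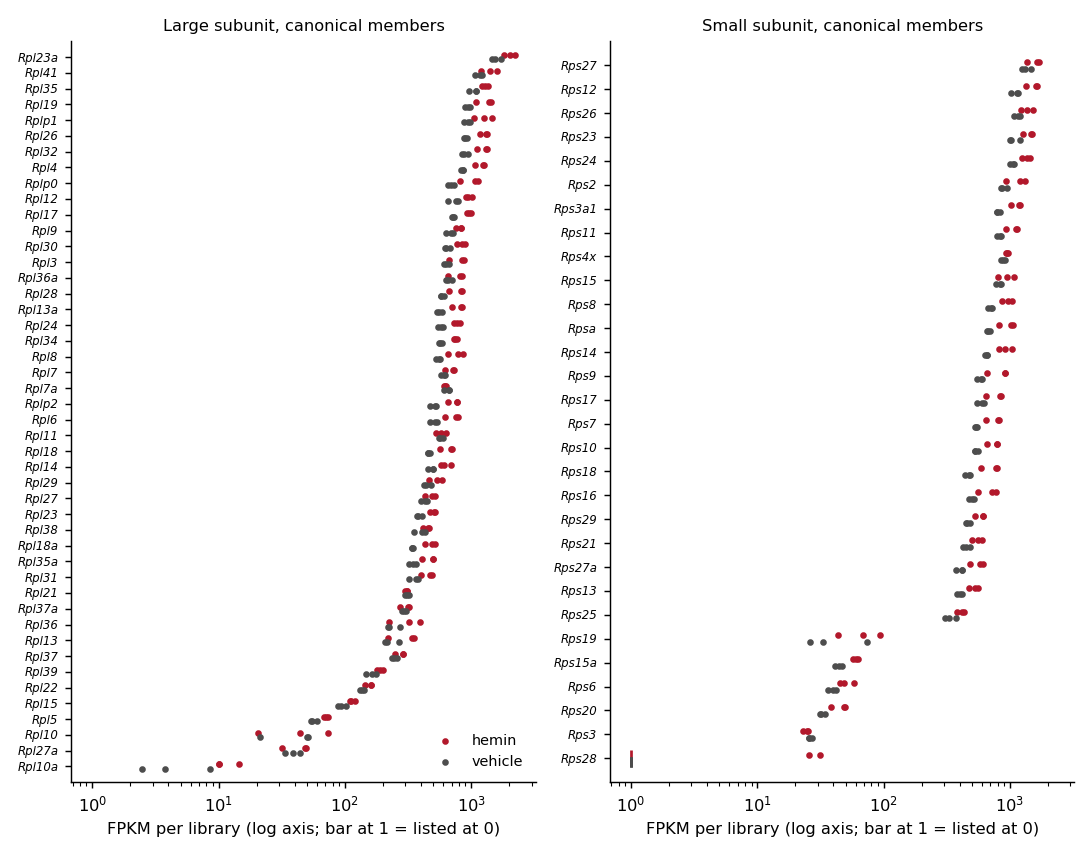
FPKM on a log axis of the canonical members reported here in each library, sorted by the mean, with hemin in red above vehicle in grey and the large subunit on the left. Most members lie between about 200 and 2000 FPKM, the hemin points to the right of the vehicle points, while a few such as Rpl10a (mean 8.26), Rps28 (9.48) and Rps3 (25.3) are listed far lower.

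A few canonical members were listed far below the rest, although their proteins are standard parts of the ribosome. Rps28 was listed at 0, 25.6 and 31.3 FPKM with hemin and at 0 in all 3 vehicle libraries, and a listing at 0 can be a failed estimate. Rpl10a was at 10.1, 14.5 and 10.1 FPKM with hemin, against 2.49, 3.74 and 8.58 FPKM with vehicle. Its fold change was the largest among canonical members, 1.28 log2 units, but was not called (edgeR adjusted p = 0.064). Rps20 and Rps15a stand low per length, with means of 39.0 and 52.0 FPKM, and both rose, by 0.54 and 0.50. The transcripts listed for them are long, 3446 and 5158 bases, against a median of 708 bases for the members.

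Most members have near-identical copies in the genome. Of the canonical members 74 had at least 1 near-identical copy elsewhere in the mouse transcript annotation (at least 95% identity over 90% of the coding sequence), and 17 had 10 or more. The authors' read assignment could split such reads, so single values are uncertain. The median level was 587 FPKM for the 3 canonical members with no copy, 671 FPKM with 1 to 4 copies, 551 FPKM with 5 to 9 and 739.8 FPKM with 10 or more, so levels did not run in order of copy number. Rps3, among the lowest at a mean of 25.3 FPKM, has no copy. Among canonical members with no copy, Rps3 had a log2 fold change of -0.05 and Rpl8 of 0.52. The median log2 fold change was 0.49 for those with 1 to 4 copies, 0.44 with 5 to 9 and 0.42 with 10 or more. It was thus lower in the classes with more copies, and whether the copies bear on the change was not tested. The median was above 0 in every class.

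Against the family as a whole, 7 members were lower with hemin. When each library was scaled by its summed ribosomal protein counts, Rpl7a, Rpl21, Rpl11, Rpl37a, Rps3, Rps4x and Rpl7l1 passed as lower (edgeR adjusted p below 0.05 over all genes) and 0 were higher. This scaling moves the median of all genes to -0.43, so the background is 40.4% of genes lower and 6.77% higher, and 7 of 84 members is a small share beside it. At an unadjusted p below 0.05 the counts were 9 lower and 1 higher. The comparison was added after the data were seen. It called 0 members lower without hemin replicate 2, 1 (Rpl7a) without vehicle replicate 1, 2 without vehicle replicate 2, 3 without vehicle replicate 3, 4 without hemin replicate 3 and 11 without hemin replicate 1.

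Rpl7a, a large subunit protein, had 633, 617 and 604 FPKM with hemin, against 607, 670.3 and 668 FPKM with vehicle, with overlap. Per 1000 ribosomal protein counts, Rpl7a took 15.3, 12.8 and 12.3 with hemin, against 17.8, 18.4 and 18.6 with vehicle, without overlap. Rpl21 took 18.2, 14.8 and 15.04 per 1000 with hemin and 21.2, 21.5 and 20.9 with vehicle. Rpl11 took 7.90, 7.49 and 8.10 with hemin and 10.3, 10.3 and 9.64 with vehicle. The FPKM of Rpl21 and Rpl11, like that of Rpl7a, overlapped between the groups.

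Rps3, which guards the mRNA entry channel, had 25.3, 24.9 and 22.9 FPKM with hemin, against 27.3, 25.6 and 25.7 FPKM with vehicle. It was the only tested member whose FPKM lay below vehicle in every hemin library, though its log2 fold change over all genes was -0.05 ± 0.11. Rps4x, the X-linked gene of the small subunit protein Rps4, had 924, 939.9 and 965 FPKM with hemin, against 857, 874 and 906 FPKM with vehicle. Every hemin value lay above every vehicle value, and Rps4x was not called over all genes (log2 fold change 0.16 ± 0.08).

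**Figure D4:**
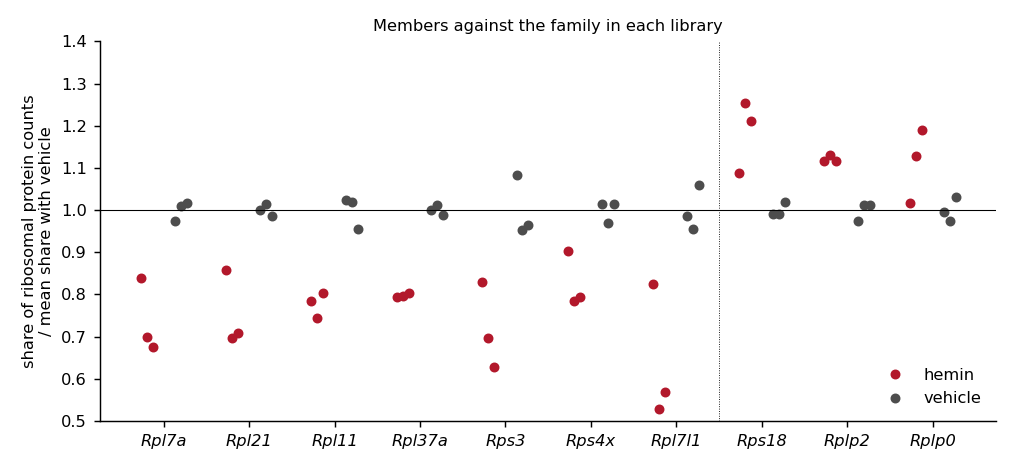
Share of ribosomal protein counts taken by a gene in each library, divided by its mean share with vehicle, for the 7 members that were lower relative to the family (left of the dotted line) and for Rps18, Rplp2 and Rplp0, which had among the greatest rises. Red points are hemin and grey points vehicle libraries. Each of the 7 has its hemin points below its vehicle points; for Rpl7a they stand for 15.3, 12.8 and 12.3 per 1000 with hemin and 17.8, 18.4 and 18.6 per 1000 with vehicle.

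No feature examined was shared by all 7. A small nucleolar RNA gene lies inside 3 of the 7 (Rpl7a, Rpl21 and Rps3), against 27 of the other 74 members with an annotation. Their median transcript length was 992 bases, against 701 bases for the other tested members. Rpl21 and Rpl7a have 56 and 32 near-identical copies, the most of all members searched, while Rps3 has 0. The median was 6 copies for the 7 and 5 for the others. Whether split reads bear on these values was not tested. Of the 6 with a start in the table, which does not hold Rpl21, Rpl7a had a TOP tract in the window.

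Members with and without a TOP tract in the window were set side by side. The window rests on annotated starts, so a member without a tract in it may still have one. The background is 16.2% of genes higher and 15.7% lower. Of the 23 tested members with at least 1 start bearing a tract, 17 rose, with a median log2 fold change of 0.44. Of the 40 without one in the window, 23 rose, with a median of 0.42. In the 250 bases before to 50 bases after the start, searched on both strands, CCGGAAG, the site of ETS-family factors, was found at 33.3% of the member starts, against 16.7% of the starts of tested genes and 8.86% of all starts. AAGATGG was found at 15.4% of member starts, against 6.83% of the starts of tested genes and 6.34% of all starts. A palindromic element with CGCG at its centre, known from CpG-rich promoters, was found at 8.97% of member starts, against 0.94% of the starts of tested genes and 0.47% of all starts. TATAAA was found at 10.3% of member starts, which is above the 6.97% of tested genes' starts and below the 13.6% of all starts. CACGTG was found at 10.3% of member starts, close to the 9.84% of tested genes' starts (7.15% of all starts). TGACNNNGC, where N is any base, was found at 20.5%, against 14.2% of the starts of tested genes and 12.4% of all starts. A match describes these letters in this window and nothing more.

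Paralogs close to a canonical protein were also expressed. Rpl22l1, which can stand in for the RNA-binding protein Rpl22, had 88.0, 128 and 104 FPKM with hemin, against 68.4, 78.2 and 65.2 FPKM with vehicle, and rose by 0.67 ± 0.16 (edgeR adjusted p = 0.018). Its edgeR adjusted p was 0.055 without hemin replicate 2, 0.070 without vehicle replicate 1 and 0.056 without vehicle replicate 3. Rpl22 itself was not called, with a log2 fold change of 0.24 ± 0.08. Rpl22l1 therefore made up 37.8%, 44.5% and 39.2% of the FPKM of the pair with hemin, against 34.3%, 35.6% and 32.2% with vehicle. These shares did not overlap, and the two-sided exact permutation test gave p = 0.1, the smallest that 3 against 3 libraries allow.

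Rpl7l1, a homologue of Rpl7, took a lower share beside its partner. Rpl7l1 had 41.6, 31.2 and 34.2 FPKM with hemin, against 41.0, 42.3 and 46.5 FPKM with vehicle, with overlap, and was not called over all genes (edgeR adjusted p = 0.26). Its share of the pair was 5.36%, 4.77% and 4.57% with hemin, against 6.16%, 6.56% and 7.43% with vehicle, without overlap (exact permutation p = 0.1, n = 3 each). Rps27l, a p53 target in human cells, had 232, 246 and 262 FPKM with hemin, against 186, 202 and 202 FPKM with vehicle. It rose by 0.40 ± 0.09 (edgeR adjusted p = 0.014, but 0.067 without vehicle replicate 1 and 0.055 without vehicle replicate 2). Its share beside Rps27 overlapped between the groups, at 13.7% ± 2.12 with hemin and 12.8% ± 0.61 with vehicle.

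Rpl36al held 22.6% ± 1.41 of its pair with hemin and 22.7% ± 0.75 with vehicle, and Rps4l 1.29% ± 0.18 with hemin and 1.33% ± 0.12 with vehicle (SD, n = 3 each). The retrocopy Rpl37rt had the greatest rise of all called members, 0.86 ± 0.27, with 43.1, 92.9 and 73.2 FPKM with hemin against 40.8, 33.4 and 45.2 FPKM with vehicle. Its groups overlapped, and its edgeR adjusted p of 0.043 was 0.13 without hemin replicate 2, 0.093 without hemin replicate 3, 0.11 without vehicle replicate 1, 0.13 without vehicle replicate 2 and 0.066 without vehicle replicate 3. The retrocopy Rps27rt, listed at 53.4, 27.4 and 194 FPKM with hemin and at 0, 54.0 and 0 FPKM with vehicle, was not called.

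Of the 13 tested members with more than 1 listed transcript, Rpl34 and Rps27 had transcript shares that did not overlap between the groups. That is 15.4% of these members, against a background of 24.6% of the 4008 tested genes with several listed transcripts, so the share is below the background. In both the differing form was rare. The non-coding form of Rps27 made up 0.69% ± 0.04 of its FPKM with hemin and 0.37% ± 0.12 with vehicle (SD, n = 3 each; exact permutation p = 0.1). The main form of Rps24, which has several splice forms, held 98.8% ± 0.19 with hemin and 98.9% ± 0.28 with vehicle.

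Transcript length ran alongside the change. Other genes of up to 500 bases had a median log2 fold change of 0.18, those of over 500 to 1000 bases 0.13, and those over 4000 bases -0.11. Members exceeded other genes in each class, with medians of 0.41 up to 500 bases and 0.45 from over 500 to 1000 bases. With the length trend removed from each library, the members' median was 0.32 and 43 rose, where the background is 17.7% of genes higher and 14.6% lower.

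**Figure D5:**
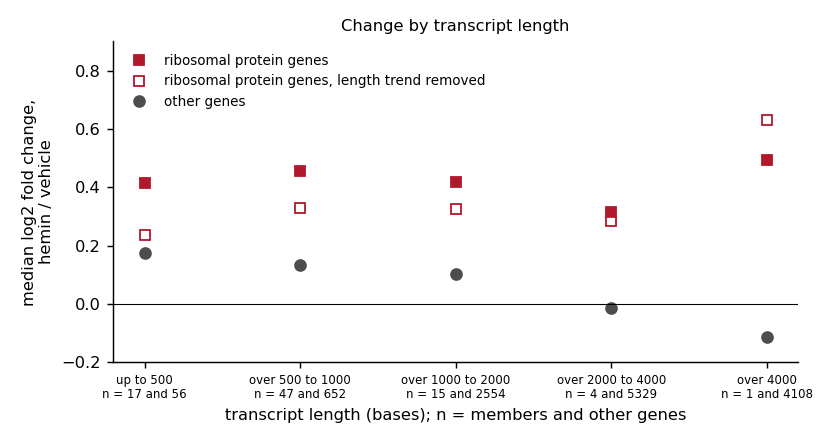
Median log2 fold change (hemin over vehicle) by transcript length for the members (red squares), the members after removal of the length trend (open squares) and all other tested genes (grey circles). The grey medians fall from 0.18 in the shortest to -0.11 in the longest class, and the members lie above them in every class; the class over 4000 bases holds 1 member, Rps15a.

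Some ribosomal parts have other symbols. Rack1, a scaffold on the small subunit, had 559, 682 and 698 FPKM with hemin, against 418, 401 and 457 FPKM with vehicle, and rose by 0.66 ± 0.10 (edgeR adjusted p = 0.0036). Fau, made as a fusion with a ubiquitin-like protein, was not called, with a log2 fold change of 0.39 ± 0.16. Mitochondrial ribosomal proteins, which serve a separate ribosome, gave 10 higher and 9 lower of 77 tested, with a median of 0.13 and shares below the background of 16.2% and 15.7%.

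Most other mRNAs known for a TOP tract rose too. Of 20 such non-ribosomal mRNAs 13 rose and 0 fell, against a background of 16.2% of genes higher and 15.7% lower. Their median log2 fold change was 0.37. At an unadjusted edgeR p below 0.05 the counts were 15 higher and 0 lower, and DESeq2 called 14 and 0 (background 17.1% and 16.1%). Tpt1, a growth-related protein, had 1718, 2117 and 1985 FPKM with hemin, against 1247, 1331 and 1235 FPKM with vehicle. The elongation factors Eef1b2 and Eef2 rose by 0.66 and 0.60 and the initiation subunit Eif3e by 0.60. Hnrnpa1 was lower in all 3 hemin libraries but not called, with 319, 398 and 445 FPKM with hemin against 453, 483 and 463 FPKM with vehicle.

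Of 25 tested genes listed as regulators of TOP mRNAs or of mTORC1, 6 were higher and 5 lower, with a median of -0.11. The background is 16.2% higher and 15.7% lower. Calls in both directions were thus not far from the background. Sesn2, which restrains mTORC1, rose by 2.37 ± 0.17, to 64.1, 44.1 and 54.1 FPKM with hemin, against 10.9, 10.04 and 11.7 FPKM with vehicle. Eif4ebp1, the translational repressor that mTORC1 inactivates, rose by 2.32 ± 0.30, and Ddit4l, another mTORC1 inhibitor, by 1.51 ± 0.15. Rheb, the GTPase that activates mTORC1, rose by 1.06 ± 0.11. The 5 called lower were Mtor, the kinase itself (log2 fold change -0.50), Mlst8 (-0.81), Eif4ebp2 (-0.63), Maf1 (-0.42) and Rps6kb1 (-0.38). Rhebl1, at most 2.1 FPKM in any library, changed by -1.10 and was not called (edgeR adjusted p = 0.056).

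Many factors that build the ribosome rose as well. For the large subunit 20 of 32 rose and 0 fell, with a median of 0.63 (24 and 0 at an unadjusted p below 0.05; DESeq2 20 and 0). The export adaptor Nmd3 rose by 1.30 ± 0.10, with 58.1, 62.7 and 59.9 FPKM with hemin against 24.6, 24.6 and 27.2 FPKM with vehicle. For the small subunit 11 of 23 rose and 0 fell, with a median of 0.46 (14 and 1 at an unadjusted p below 0.05; DESeq2 11 and 0), led by Wdr43 and Wdr75, which act on the early pre-ribosome, at 1.09 and 1.01. Genes for RNA polymerase I, which makes ribosomal RNA, gave 3 higher and 2 lower of 17, near the background of 16.2% and 15.7%. Taf1a, Twistnb and Taf1d rose by 1.27, 0.86 and 0.78, and Ubtf, an activator of the polymerase, fell by 1.05.

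Chaperones and importers of ribosomal proteins gave 4 higher and 2 lower of 16, against a background of 16.2% and 15.7%. The chaperone gene Pdcd2 rose by 0.81, and the importers Ipo9 and Kpnb1 fell by 0.56 and 0.54. Genes of ribosome quality control gave 8 higher and 0 lower of 25 (11 and 0 at an unadjusted p below 0.05; DESeq2 11 and 0), with the helicase gene Ascc3 at 1.31 ± 0.22. In the list that links free ribosomal proteins to p53, 5 of 10 rose and 0 fell (7 and 0 at an unadjusted p below 0.05; DESeq2 7 and 0), with Cdkn1a at 2.35 ± 0.24, Mdm2 at 1.92 ± 0.25 and Nop53, a nucleolar factor of the large subunit, at 0.86 ± 0.08.

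Markers of cell types moved in the same libraries. The counts called stand beside a background of 16.2% of genes higher and 15.7% lower. OPC markers summed to 410 to 624 FPKM with hemin and to 1229 to 1488 FPKM with vehicle, with 0 of 11 higher and 8 lower. Microglia and macrophage markers summed to 62.0 to 66.8 FPKM with hemin and to 30.7 to 45.8 FPKM with vehicle, with 3 of 11 higher and 0 lower. Neuron markers summed to 123 to 165 FPKM with hemin and to 213 to 252 FPKM with vehicle, with 1 of 14 higher and 6 lower. Astrocyte markers summed to 417 to 556 FPKM with hemin and to 527 to 609 FPKM with vehicle, with 1 of 10 higher and 5 lower. Oligodendrocyte markers summed to 31.3 to 45.2 FPKM with hemin and to 42.6 to 69.1 FPKM with vehicle, with 0 of 6 higher and 2 lower. Endothelial, pericyte and fibroblast markers summed to 15.2 to 26.8 FPKM with hemin and to 25.03 to 29.9 FPKM with vehicle. By gene, 3 of 9 tested were higher and 1 lower, and their median log2 fold change of 1.18 is opposite in sign to the change of the sum. Cspg4 stands both in this list and in the OPC list. Erythroid markers summed to 0.15 to 5.12 FPKM with hemin and to 1.04 to 3.03 FPKM with vehicle. The oligodendrocyte marker Mog and the erythroid markers Alas2, Hbb-b1 and Hbb-b2 were listed in no library. The part of these shifts in the rise of the ribosomal protein mRNAs was not tested.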

How the data were processed

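RNA-seq was analysed in 3 hemin and 3 vehicle libraries, grouped by their titles. Per the labels' protocols, mRNA was enriched and amplified by PCR. The submitters' processing notes name Bowtie 0.12.2, RSEM without a version, and, without saying for what, mm8 and mm9. Annotation release and strand: not given in the sources used here. Per the file headers, the deposited tables hold expected counts per transcript, not scaled for depth, and FPKM, scaled by the authors for length and library size. Tables of unannotated features were not used.

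Transcripts were summed per gene, absent ones set to 0. Of 18753 gene identifiers 18706 matched the RefSeq gene table (GRCm38.p6) directly, and 31 had no symbol. In R 4.3.3, rounded counts were tested with edgeR 4.0.16 (filterByExpr by group, TMM, quasi-likelihood, two-sided, Benjamini-Hochberg over 12783 genes). The biological coefficient of variation was 0.208. The filter can be passed through 1 group alone. Alternatives were DESeq2 1.42.0, limma 3.58.1 on log2(FPKM + 1) and log2(FPKM + 0.1) for genes with a mean of at least 0.5 FPKM, other scalings, no filter, the most abundant transcript, a length offset (lowess), a replicate block and each library left out. Copies were found with blastn 2.17.0 among GENCODE vM21 transcripts. Starts are from RefSeq.

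The members and lists were chosen with earlier results of these data known. The design did not fix the scaling by summed ribosomal protein counts, which was added after the data were seen. Named genes are per subunit the 6 called members with the greatest rise and fall, the 3 highest and 3 lowest by FPKM, the paralogs, members named for a role, and per outside list up to 4 with the smallest p and 1 against its direction. Rps10, Rps15a, Rpl37a, Rpl7a, Rpl21, Rpl8 and Rplp1 were named also or instead for their starts, lengths, copies or fall relative to the family, after their values were seen. A few genes picked by the rule are not reported here.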

Additional observations from a re-analysis of the deposited data

How the results depend on the processing

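The median, the counts of rises and the subunit difference kept their direction under every alternative run. Of the 56 members called, 29 were called in all 6 fits that left out 1 library and 25 under every alternative. Higher calls numbered 56 with DESeq2's size factors in edgeR, 45 with library totals alone (median of all genes -0.09), 54 with upper-quartile factors, 62 with DESeq2, 38 with limma on log2(FPKM + 1) and 27 with limma on log2(FPKM + 0.1). They were 48 with no filter, 54 with the most abundant transcript and 43 with the length offset, which gave a median of 0.32. Limma called 15 small subunit members with a pseudocount of 1, and 15 large and 12 small with 0.1. Without 1 library, calls ran from 29 (without vehicle replicate 1) to 67 (without hemin replicate 1), higher calls from 29 to 66, large subunit calls from 16 to 40, small from 13 to 27, and lower calls from 0 to 1 (Rpl7l1, without hemin replicate 1). The subunit difference ran from -0.088 to -0.0090. By FPKM the share differed by 2.37 percentage points. Relative to the family, lower calls ran from 0 to 11 and higher calls from 0 to 5 without 1 library; the length offset gave 9 lower and 1 higher (Rps15a), the most abundant transcript the same 7. The share of all genes called higher was between 11% and 17.7% over these alternatives. The cause of these changes was not tested.

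Replicate numbers were not treated as pairs in the main test. Deviations of same-numbered libraries correlated weakly, at 0.0644, 0.1 and 0.158. Each library still correlated best with its own number, a hint from the data and not the design. The replicate block gave 55 higher and 0 lower calls, a median of 0.44 and 7 members lower relative to the family. At 6339966 to 6523639 counts a library, Rps28, Rpl3l and Rps23rg1 did not pass the filter on low counts; why Rps28 is listed at 0 in 4 libraries was not tested.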
